A study of Mus musculus with 16 samples.

Results

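Active coding promoters without the fusion were the H3K27ac peaks of mouse clear cell sarcoma that reached a protein-coding transcription start site (TSS) and RNAPOL2 but no V5-tagged EWSR1::ATF1 (EA1). A peak was a member when it entered the window of 3 kb on either side of a protein-coding TSS of GENCODE vM21, shared at least 1 bp with an RNAPOL2 peak, and had no base in common with a V5 peak. The rule found 8061 members among 27552 H3K27ac peaks, or 29.3% of that list. They made up 56% of the 14388 H3K27ac peaks at coding promoters. Among the 11061 active coding promoters, which had both H3K27ac and RNAPOL2, 72.9% had no V5 peak (Wilson 95% interval 72% to 73.7%). The study works with sets of V5 sites of different sizes, a longer set as well as a set of the size of the deposited list, and these counts apply to the deposited list. The other 3000 overlapped V5 and are called fusion-bound. A further 2984 coding promoters had H3K27ac with neither RNAPOL2 nor V5 and are called acetylated only. The members were chosen by measured peaks of all 3 antibodies, so overlaps, scores, widths and distances to V5 are described without a test.

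H3K27ac, acetylated lysine on the tail of histone H3, is laid down by the acetyltransferases EP300 and CREBBP and marks active promoters and enhancers. RNAPOL2 transcribes all coding genes and collects near the TSS before it elongates. The study describes its RNAPOL2 antibody as one for the phosphorylated form. EA1 pairs the amino terminus of EWSR1 with the part of ATF1 that contacts DNA. ATF1 is a CREB relative that binds the cAMP response element (CRE). Most promoters of genes that every cell uses lie in CpG islands and are driven by general factors such as SP, ETS, NF-Y and NRF1, without any need of a CRE.

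The 16 samples came from tumors of the hindlimb and comprised 4 with anti-V5, 4 with anti-RNAPOL2, 4 with anti-H3K27ac and 4 of input chromatin. All tumors carried the same allele, a human EWSR1::ATF1 cDNA with a V5 tag in the Rosa26 locus behind a loxP-flanked stop, followed by EGFP on an internal ribosomal entry site. They were induced by TATCre protein injected into the limb of 4-week-old mice, so any cell type that took up the enzyme could recombine. The mice were of mixed 129/SvJ and C57Bl/6 background, and the fusion was driven by the Rosa26 promoter rather than by the Ewsr1 locus. No tumor without the fusion was among the samples, so the members describe promoters where EA1 was not called, not promoters that were active before it. The deposited values were 1 pooled peak list for each antibody, of 27552 H3K27ac, 20375 RNAPOL2 and 10665 V5 peaks, with a whole-number score whose scale is not stated and no value for a single sample. Spread between tumors and the reads behind a peak could therefore not be given, and p-values below treat peaks as units and describe these lists, not animals.

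The clearest sequence difference from fusion-bound promoters was the full CRE, TGACGTCA, which was rare in the members. The first set of sequences shows members that had it within 100 bp of the TSS with the highest RNAPOL2 scores, read from mm10 in the direction of the gene with 30 bases on each side and the element in capitals. The full CRE was present here with no V5 peak.
Flcn (chr11:59810051-59810118, minus strand): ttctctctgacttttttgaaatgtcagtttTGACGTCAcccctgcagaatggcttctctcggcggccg
Bcas2 (chr3:103171657-103171724, plus strand): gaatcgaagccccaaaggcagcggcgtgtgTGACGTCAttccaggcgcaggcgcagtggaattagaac
Map3k13 (chr16:21794268-21794335, plus strand): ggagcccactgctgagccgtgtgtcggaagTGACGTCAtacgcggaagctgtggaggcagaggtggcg
Trip6 (chr5:137314227-137314294, minus strand): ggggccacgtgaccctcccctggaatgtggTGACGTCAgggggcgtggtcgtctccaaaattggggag
The second set shows the fusion-bound promoters with the highest RNAPOL2 scores under the same choice, for contrast.
Errfi1 (chr4:150854989-150855056, plus strand): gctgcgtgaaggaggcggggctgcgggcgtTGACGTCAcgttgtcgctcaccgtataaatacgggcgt
Cdc42 (chr4:137357687-137357754, minus strand): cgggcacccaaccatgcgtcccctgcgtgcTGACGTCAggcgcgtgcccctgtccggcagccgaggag
Ier2 (chr8:84662860-84662927, minus strand): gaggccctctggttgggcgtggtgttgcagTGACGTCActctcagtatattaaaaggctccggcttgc
The third shows the RefSeq promoter of Ep300 (GRCm38.p6, 250 bases before to 50 after its start), the member with the highest H3K27ac score. Around the TSS of Ep300 GC content was 69.6% and the ratio of observed to expected CpG 0.845, both above the 75th percentile of the members. Its capitals mark a GC box, GGGCGG, the match found here among the 10 elements searched.
Ep300 (chr15:81585964-81586263, plus strand): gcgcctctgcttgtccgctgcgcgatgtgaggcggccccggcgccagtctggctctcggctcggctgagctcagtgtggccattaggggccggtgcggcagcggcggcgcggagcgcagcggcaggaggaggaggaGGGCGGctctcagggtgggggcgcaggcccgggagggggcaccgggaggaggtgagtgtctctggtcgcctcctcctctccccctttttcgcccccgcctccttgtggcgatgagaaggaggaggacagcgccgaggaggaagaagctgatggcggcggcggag

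The members were narrower peaks than the fusion-bound. For each peak the coding TSS nearest its middle was taken as its own, which gave 7996 TSSs of 7474 genes, and 93.6% of the peaks covered that TSS. The median H3K27ac peak of the members was 1520 bp wide, against 2210 bp in the fusion-bound class and 930 bp in the acetylated only class. Their RNAPOL2 peaks had a median width of 910 bp, and 360 members (4.47%) touched more than 1 RNAPOL2 peak. H3K27ac covered 95.6% of the members' TSSs, 36.8% of positions 1 kb downstream and 21.6% of positions 1 kb upstream, so acetylation reached further into the gene than away from it. RNAPOL2 covered 92.9% of the TSSs, and at 1 kb the cover was 10.7% downstream and 10.6% upstream. At the fusion-bound TSSs the corresponding RNAPOL2 values at 1 kb were 24.2% and 22.4%.

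**Figure D1:**
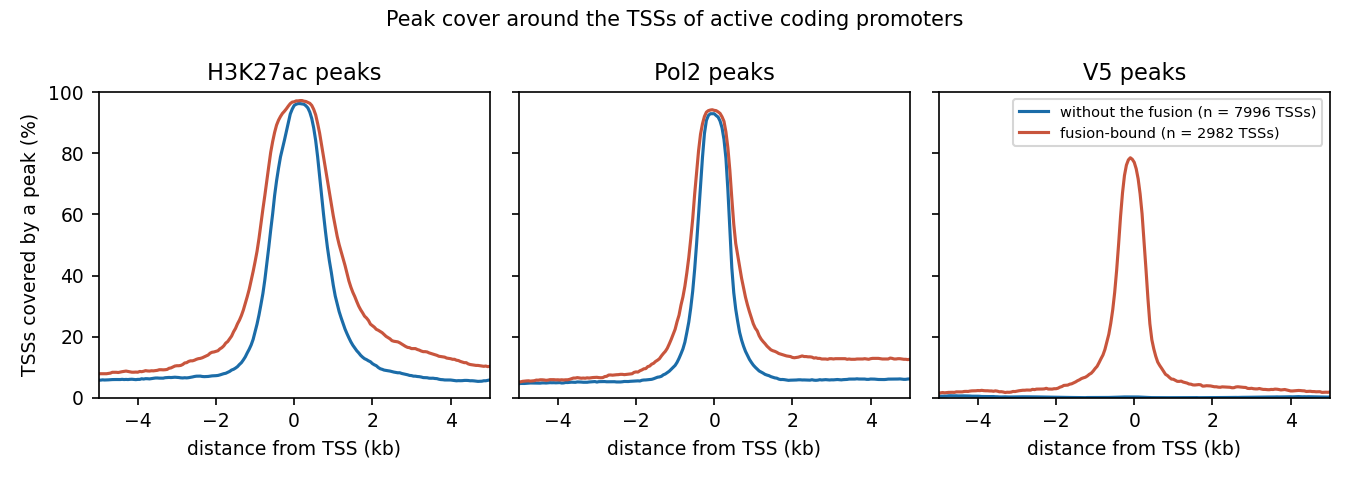
Percent of TSSs (y axis) covered by an H3K27ac, RNAPOL2 (Pol2) or V5 peak against distance from the TSS in kb (x axis, negative is upstream), for 7996 TSSs of members (blue) and 2982 TSSs of fusion-bound promoters (red). Members and fusion-bound promoters are covered alike at the TSS by H3K27ac (95.6% and 96.8%), the flanks are narrower in members, and V5 covers 0.3% of the members' TSSs, where the TSS lies outside the member itself, against 77%.

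In scores, the members lay between the other classes. The median H3K27ac score was 679 in the members, 1554 in the fusion-bound class and 91 in the acetylated only class. The middle range of the members, from the 25th to the 75th percentile, was 345 to 1297. The median RNAPOL2 score was 687 in the members and 1315 in the fusion-bound class. When all active coding promoters were ordered by H3K27ac score and cut into 10 equal groups, 91.2% of the lowest group and 36.7% of the highest had no V5 peak, with a fall at every step. By RNAPOL2 score the share was 82% in the lowest group, 87.2% in the next and 42.3% in the highest. Promoters without the fusion were thus the majority in every group but the highest by each measure, and the highest still held 406 members by H3K27ac.

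**Figure D2:**
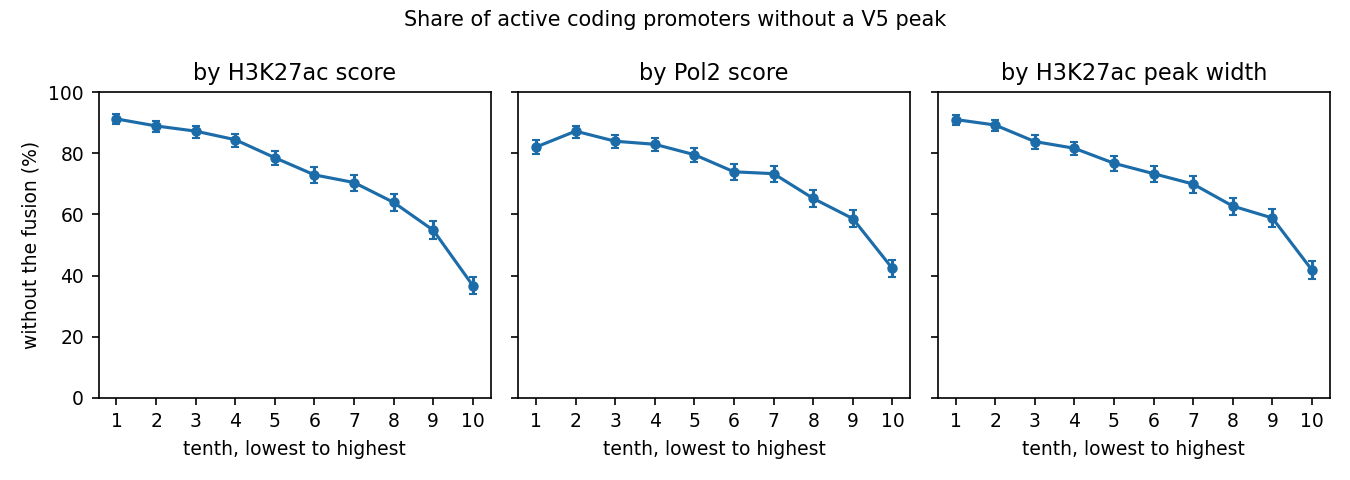
Percent of 11061 active coding promoters without a V5 peak (y axis) in 10 equal groups from lowest to highest (x axis) by H3K27ac score, RNAPOL2 (Pol2) score and H3K27ac peak width, with Wilson 95% intervals as bars. The share falls from 91.2% to 36.7% by H3K27ac score and from 91% to 41.8% by width, and in the highest group of each measure fusion-bound promoters are the majority.

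The highest H3K27ac score among the members was at Ep300. Ep300, the H3K27 acetyltransferase itself (chr15:81584561-81587840), had an H3K27ac score of 9969, the second highest of all 27552 peaks, and an RNAPOL2 score of 2357. The nearest V5 peak to Ep300 was 184070 bp away. Kansl1, a subunit of a histone acetyltransferase complex, followed with an H3K27ac score of 8668, and its nearest V5 peak lay 248790 bp away. The other 8 of the 10 highest were Efcab2, Ddx6 (a helicase of mRNA decay, 8145), Eif4e2 (a cap-binding protein, 7426), Ctdsp2, Ypel5, Actb, Rhoa and Nr2c2 (an orphan nuclear receptor, 6549). Their H3K27ac scores ran down to that of Nr2c2, and the RNAPOL2 scores of these promoters ranged from 1265 at Eif4e2 to 10204 at Actb.

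The 10 highest RNAPOL2 scores among the members included several that did not belong to the TSS nearest the peak. Actb, cytoplasmic beta-actin (chr5:142903841-142910710), had an RNAPOL2 score of 10204 and an H3K27ac score of 6993, with V5 8250 bp away. Pdlim7, a cytoskeletal adaptor (chr13:55509861-55513840), had an RNAPOL2 score of 9325. Hist1h4d and Hist1h1e, replication-dependent histone genes, had RNAPOL2 scores of 8124 and 7646. By contrast the peak assigned to Iqcn (chr8:70702281-70703290) had the highest RNAPOL2 score, 18012, without covering the Iqcn TSS. It shared 920 of its 1010 bp with the end of an RNAPOL2 peak that itself overlapped V5. In the same way 3 weak H3K27ac peaks near Hspa8, a constitutive heat shock chaperone, lay under a single RNAPOL2 peak of score 8307 that met V5. Such RNAPOL2 peaks, free of V5 at the member but not along their length, were found at 42 members (0.521%).

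Parp16 and Rdm1, with RNAPOL2 scores of 8514 and 8150, each had an annotated small nuclear RNA gene inside the peak, Gm25313 and Gm23849. Most spliceosomal small nuclear RNAs are made by RNAPOL2 from short genes. In all, 13 members held such a gene, and their RNAPOL2 scores ranged from 642 to 8514 with a median of 2862, against 686 in the other 8048. The trait was not particular to members, as 4 of the 3000 fusion-bound promoters held one too, with a median RNAPOL2 score of 10068. Transcription of the coding gene and of the small RNA cannot be told apart in these peaks. These genes were looked up after the values of Parp16 and Rdm1 were seen.

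Most members were far from any V5 peak. The median distance to the nearest V5 peak was 69390 bp, with a 25th percentile of 27230 bp and a 75th of 158020 bp. V5 lay within 1 kb of 21 members (0.261%), within 10 kb of 798 (9.9%) and within 100 kb of 4968 (61.6%). Among the farthest 10%, the highest RNAPOL2 scores were at Eif3a (a translation initiation factor subunit, 6021), Rps19 (a ribosomal protein, 4264), Rc3h2 (an RNA-binding ubiquitin ligase, 4061), Teddm2 (3654) and Mylip (3634). The peak of Teddm2 also covered a TSS of Glul, glutamine synthetase. The V5 peak nearest to Rc3h2 was 1145620 bp away.

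At the edges of the rule, membership turned on few bases. Nectin2, a cell adhesion molecule, and Ckb, brain creatine kinase, were members with V5 peaks 30 and 80 bp away, and an Hspa8 peak was 50 bp away. Ubald2, Tomm40 and Slpi were fusion-bound through 30, 30 and 40 shared bases. Nup88 and Kcnn3 met RNAPOL2 over 10 bp each, whereas Gemin7, Hcls1 and an Egfl7 peak were the nearest to RNAPOL2 that remained outside. Ttc7, 1700122O11Rik and Celsr2 were members 2989, 2988 and 2972 bp from their TSSs, and peaks 3002 to 3013 bp from 1700066B19Rik, Mok and Adamts7 fell outside the window. The scores of these edge members were mostly low, as at Nup88 with an RNAPOL2 score of 32 and Kcnn3 with 281.

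Sequence did not enter the rule and was therefore tested, in the 500 bp on either side of the TSS of each peak, for the 8061 members against the 3000 fusion-bound promoters. Members were CpG-island promoters for the most part, though less rich in CpG than the fusion-bound. The median ratio of observed to expected CpG was 0.718 in the members (95% interval of the median 0.714 to 0.723) and 0.813 in the fusion-bound (0.804 to 0.82). The difference was -0.0944 (permutation test, two-sided, p = 1e-05, the smallest that 100000 resamples can give; Benjamini-Hochberg adjusted over 15 tests, 2.5e-05). Within 10 strata of equal H3K27ac score it was -0.0291, in the same direction and still past the threshold. A ratio above 0.6 was found in 71.8% of members, 82.3% of fusion-bound promoters and 45.9% of the 21938 annotated 5′ ends of coding genes. GC content had medians of 59.8% and 61.9% (permutation test, adjusted p = 2.5e-05). That difference turned to 0.659 points higher in the members within 10 strata of equal H3K27ac score, so the order of the classes in GC was the opposite at a given H3K27ac score, as it was with the upper 50% of V5 peaks (0.999). The acetylated only class had a median CpG ratio of 0.34, and its difference from the members was not tested.

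Within the members, those richer in CpG had the higher scores. The 5790 members above a ratio of 0.6 had a median RNAPOL2 score of 845 and an H3K27ac score of 838, whereas the 2271 at or below it had 342 and 410. The former held an ETS element in 12.7% and an NRF1 element in 9.72%, the latter in 5.86% and 4.14%. A TATA box was found in 16.1% of the former and 21.8% of the latter. The opposite-strand coding TSS of a bidirectional promoter lay within 1 kb in 11.3% and 5.28%. These splits among members are given without a test.

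The CRE was the element in which the members stood apart. TGACGTCA was present in 105 members (1.3%, Wilson interval 1.08% to 1.57%) and in 396 fusion-bound promoters (13.2%), an odds ratio of 0.0868 (95% interval 0.0697 to 0.108, Fisher's exact test, two-sided, adjusted p = 3.76e-135). All coding 5′ ends held it in 3.32% and acetylated only promoters in 1.98%. The half-site TGACG, which every full CRE contains, was in 53.3% of members and 76.5% of fusion-bound promoters (odds ratio 0.351, 0.319 to 0.386, Fisher's exact test, adjusted p = 2.05e-112). It was in 46% of all coding 5′ ends. A match of letters is not a bound site, and 46.7% of members and 23.5% of fusion-bound promoters had no TGACG in the window at all.

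For 7 more general elements no difference between members and fusion-bound promoters passed the test in this window, though 6 of them, all but the E-box, passed under at least 1 alternative. The GC box GGGCGG was found in 85.6% of members and 86% of fusion-bound promoters (odds ratio 0.969, 0.859 to 1.09, Fisher's exact test, adjusted p = 0.7), against 60.4% of all coding 5′ ends and 51.4% of acetylated only promoters. The ETS element CCGGAAGT was in 10.7% and 11.5% (0.926, 0.811 to 1.06), the TATA box TATAAA in 17.7% and 17.4% (1.03, 0.919 to 1.15) and the E-box CACGTG in 20% and 20.3% (0.98, 0.883 to 1.09). The AP-1 element TGAGTCA was in 9.54% and 10.2% (0.925, 0.805 to 1.06). The NRF1 element GCGCATGC was in 8.15% and 7.03% (1.17, 0.998 to 1.38), and TCTCGCGA, the element bound by BANP, in 2.93% and 3.6% (0.808, 0.641 to 1.02). With 100 bp of sequence, TATAAA had an odds ratio of 0.601 (Fisher's exact test, adjusted p = 0.000188) and GCGCATGC of 1.61 (adjusted p = 0.000654). Within strata of H3K27ac width CCGGAAGT had 0.691 and passed the Mantel-Haenszel test. The NF-Y box CCAAT was in 64.4% of members and 61.8% of fusion-bound promoters (odds ratio 1.12, 1.02 to 1.22, Fisher's exact test, adjusted p = 0.0254). The CCAAT difference did not pass the test within strata of H3K27ac width (1.02) and turned to 0.948 within strata of score. For the GC box, strata of score gave 1.63, which passed the Mantel-Haenszel test, more often in the members at a given H3K27ac score.

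**Figure D3:**
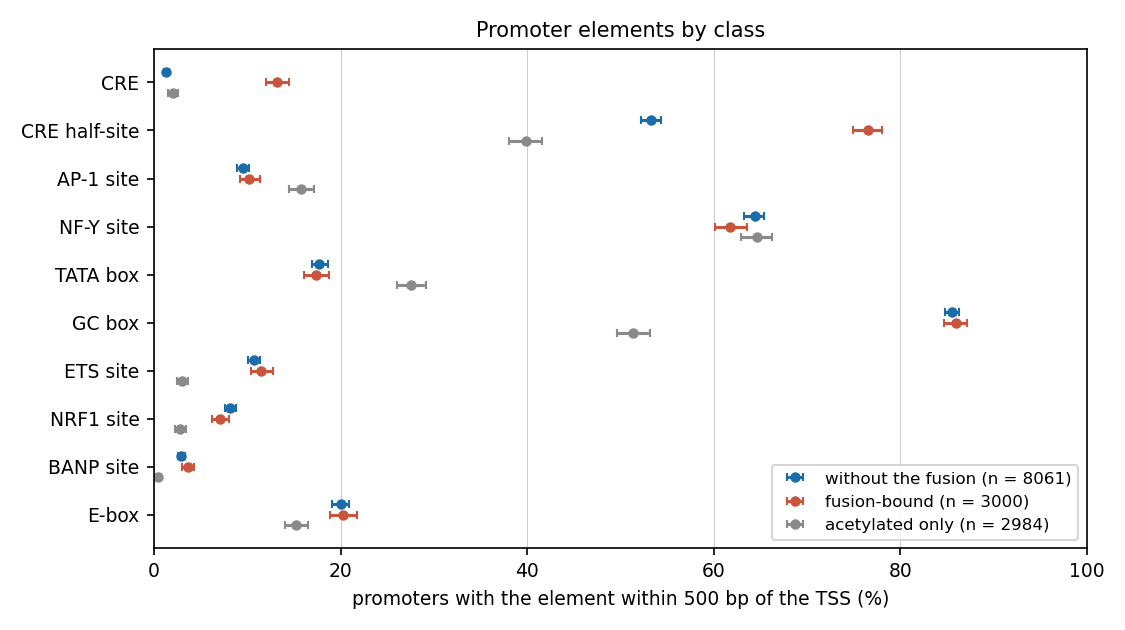
Percent of promoters (x axis) with each of 10 elements (y axis) within 500 bp of the TSS, on either strand, with Wilson 95% intervals, for 8061 members (blue), 3000 fusion-bound (red) and 2984 acetylated only promoters (grey). The full CRE (1.3% against 13.2%) and its half-site (53.3% against 76.5%) separate members from fusion-bound promoters, whereas the GC box is at 85.6% and 86%.

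The share of active promoters without the fusion was lower where there were more copies of the half-site TGACG. Copies were counted on both strands, so 1 full CRE counted as 2 copies of TGACG, and its part in this was not tested. Among active promoters with at least 1, 2 and 3 copies of TGACG, 65.2%, 51.7% and 37.3% had no V5 peak. Of the 501 with TGACGTCA, 21% had none (17.6% to 24.7%). Of the 25 with at least 2 copies of TGACGTCA, 0 were members, which allows a share of up to 12% (3 counts of the total) or 13.3% by the Wilson interval. By distance of the element from the TSS, the share without V5 was 18.6% under 100 bp (42 members, 14.1% to 24.2%), 20.2% from 100 to 200 bp and 22.7% from 200 to 500 bp, a spread smaller than the interval of the first. In both classes the element was most frequent in the 100 bp upstream of the TSS. In the bin from 50 bp upstream to the TSS it occurred in 0.261% of members and 2.63% of fusion-bound promoters.

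**Figure D4:**
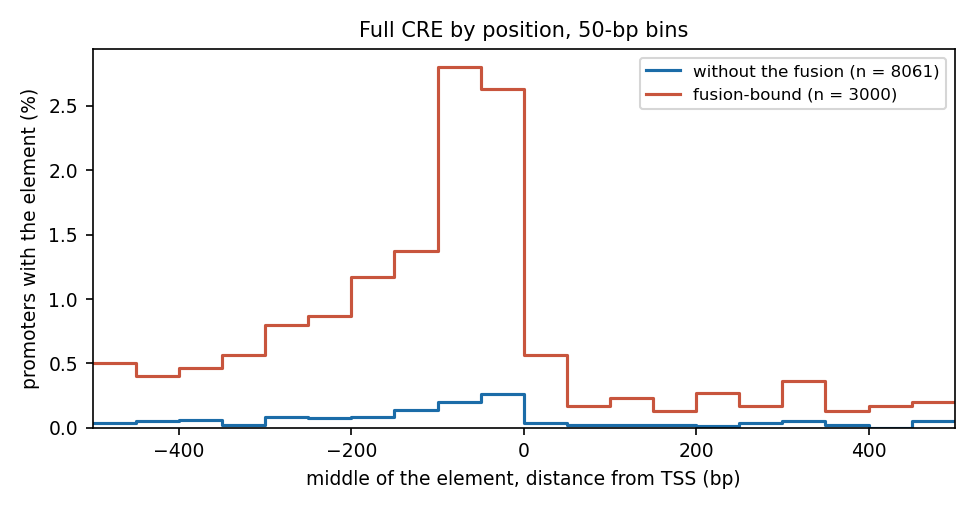
Percent of promoters (y axis) with the middle of a full CRE in each 50-bp bin around the TSS (x axis, bp, negative is upstream), for 8061 members (blue) and 3000 fusion-bound promoters (red). Both lines are highest in the 100 bp before the TSS, and the members reach 0.261% where the fusion-bound class has 2.63%.

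The 105 members with TGACGTCA had lower scores than the other members, with a median H3K27ac score of 505 against 686 and a median RNAPOL2 score of 473 against 694. V5 lay within 1 kb of 1 of them, and the median distance was 65350 bp. Flcn, encoding the tumor suppressor folliculin, stood out from this with an H3K27ac score of 5483 and an RNAPOL2 score of 1760, and its CRE lay 68 bp upstream of the TSS in the sequence shown above. Bcas2, a spliceosome component, had scores of 589 and 1497, and Trip6, a focal adhesion protein, 1435 and 1207. The rest of the 10 with the highest RNAPOL2 scores were Map3k13, Ccdc130, Ddx19a, 1700066M21Rik, Sdhb (a subunit of succinate dehydrogenase), Osbpl9 and Zfp426, with RNAPOL2 scores from 805 to 1230. Their nearest V5 peaks were 27110 bp (Sdhb) or more away, and at Trip6 218060 bp.

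Members were more often on the X chromosome. It held 2.89% of members and 0.767% of fusion-bound promoters (odds ratio 3.85, 2.51 to 5.93, Fisher's exact test, adjusted p = 2.07e-12), so 233 of 256 active coding promoters on X (91%) were without V5, against 72.4% on the autosomes. The X members also had lower scores, with medians of 423 for H3K27ac and 395 for RNAPOL2 against 690 and 701 on the autosomes. Within strata of H3K27ac score the odds ratio was 2.39 (1.53 to 3.73). The sex of the mice and the read depth on X were not analysed here, and their part in this difference was not tested. A coding TSS on the opposite strand within 1 kb was found at 9.63% of members and 12.5% of fusion-bound promoters (odds ratio 0.748, 0.656 to 0.853, Fisher's exact test, adjusted p = 4.02e-05), which did not pass the test within strata of score (0.873). The genes of the members had a median length of 25573 bp, against 29806 bp in the fusion-bound class (permutation test, adjusted p = 2.5e-05), a difference of -4234 bp that was -1919 bp within strata of width and -572 bp with the upper 50% of V5 peaks, and passed the test in neither.

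Counted by genes, 8065 of 21938 coding genes (36.8%) had a TSS inside a member and 3194 (14.6%) inside a fusion-bound peak. Within 3 kb of a member were 8552 genes (39%). Both kinds of peak covered TSSs of 236 genes, and 7829 had members alone. Among the 11023 genes with either kind, 71% were without the fusion at every active TSS, and these values serve as the background for the gene lists below. A peak covered TSSs of 2 coding genes at 834 members (10.3%) and of 3 or more at 35, and such genes share 1 value.

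Genes of the protein synthesis machinery were active throughout, and most of them, as of all active genes, were without the fusion. All 79 cytosolic ribosomal protein genes had an active promoter, and 51 of them (64.6%) had members alone, with a median RNAPOL2 score of 3081 against 790 over all genes with members alone. Rpl12 (5677), Rps6 (5142) and Rpl7a (5092) were among those with the highest RNAPOL2 scores. The Rpl12 and Rpl7a peaks also covered TSSs of Lrsam1 and Med22. A fusion-bound peak alone was found at 27, and the share without EA1, 64.6% of the active (53.6% to 74.2%), stood against 71% of all active genes. All 78 mitochondrial ribosomal protein genes were active as well, and 65 (83.3%, 73.5% to 90%) had members alone, an interval above the 71% of all active genes. These were led by Mrps6 (RNAPOL2 score 2945), Mrps24 (2677), Mrps26 (2046) and Mrps7 (1992). Of the 20 cytosolic aminoacyl-tRNA synthetases, which charge tRNAs, 17 had members alone, among them Kars (2173), Dars (2137), Gars (1461) and Sars (1054), and Eprs, Nars and Vars were fusion-bound.

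Other core machines were similar. Of 32 genes of the 26S proteasome, which degrades ubiquitinated proteins, 26 had members alone, led by Psma6 (RNAPOL2 score 3855), Psma4 (2945), Psmd8 (2451) and Psma3 (2417). Of 36 genes of respiratory chain complex I, 28 had members alone, with Ndufb9 (3534), Ndufa6 (3268), Ndufa7 (3039) and Ndufa12 (2012) the highest, and the Ndufa7 peak also covered the TSS of Rps28. Of 32 core spliceosome genes, 21 had members alone, including Sf3b4 (5036), Sf3b1 (3514), Cdc5l (2433) and U2af2 (2192). For the TRiC chaperonin, which folds actin and tubulin, the count was 6 of 7 with Cct8 (2036), Cct5 (1761), Cct7 (1679) and Tcp1 (1552). For RNA polymerase II itself it was 10 of 12, with Polr2b (1690), Polr2d (1390), Polr2f (1088) and Polr2c (1020) the highest, whereas Polr2a, its largest subunit, was fusion-bound with an RNAPOL2 score of 17186. Nearly all genes of these lists were active. Of the active genes, 81.2% of the proteasome, 80% of complex I, 67.7% of the spliceosome, 85.7% of TRiC and 83.3% of RNA polymerase II were without the fusion, against 71% of all active genes. The intervals of the proteasome (64.7% to 91.1%), complex I (64.1% to 90%) and spliceosome (50.1% to 81.4%) shares all include that background.

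DNA replication and glycolysis genes lay near the background of 71% of active genes. Of 31 DNA replication genes, 19 had members alone (79.2% of the active, 59.5% to 90.8%), 5 were fusion-bound and 7 had no active promoter. Orc3 (RNAPOL2 score 1589), Orc4 (1586), Orc6 (1315) and Fen1 (1035) were the highest members, while Pcna, the replication clamp, was fusion-bound at 2088. Of 19 glycolysis genes, 12 had members alone (75% of the active, 50.5% to 89.8%), with Eno1 (4264), Eno3 (3415), Tpi1 (3139) and Pgam1 (2137) the highest, and the Eno3 peak also covered Pfn1. Gapdh, Aldoa, Pkm and Ldha were the 4 fusion-bound genes of the pathway. Zinc finger genes with a Zfp number, many of them repressors of transposons, had members alone at 217 of 365 (78.6% of the active, 73.4% to 83%) and fusion-bound peaks alone at 56, and Zfp654 (3494), Zfp397 (3415), Zfp69 (3179) and Zfp866 (2868) led the members. Of 1093 olfactory receptor genes, silent outside the nose in general, 1 was a member, Olfr1033, with an RNAPOL2 score of 657.

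**Figure D5:**
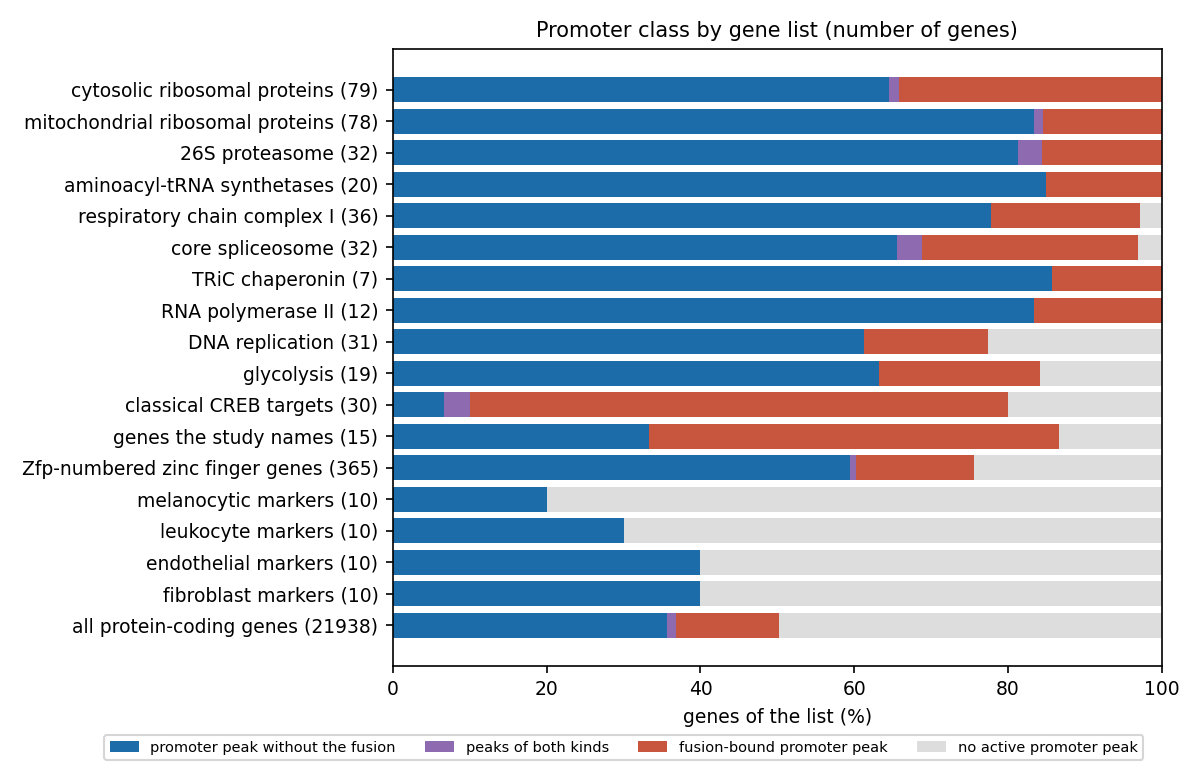
Percent of the genes of each list (x axis, number of genes in brackets) with a TSS in a member (blue), in peaks of both kinds (purple), in a fusion-bound peak (red) or in no active promoter peak (light grey). Of the active genes, members alone are found at 64.6% of cytosolic and 83.3% of mitochondrial ribosomal protein genes, 8.33% of classical CREB targets and 71% of all coding genes; lists with no or 1 member are left out.

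Classical CREB targets, immediate early and cAMP-induced genes that carry CREs, mostly had fusion-bound promoters. Of 30 such genes, 24 had an active promoter, and members alone were found at 2, Per2 and Bdnf (8.33% of the active, 2.32% to 25.8%, against 71% of all active genes). Per2, a circadian repressor (chr1:91458531-91459900), had an H3K27ac score of 490 and an RNAPOL2 score of 258, and its nearest V5 peak was 117950 bp away. Bdnf, a neurotrophin with several promoters, had scores of 159 and 243, with V5 85070 bp away. Pde4d, a cAMP phosphodiesterase with many promoters, had peaks of both kinds, and its member had scores of 285 and 1022. The scores of Per2 and Bdnf were thus below the members' medians. The list was drawn up with earlier results on these lists known, so its count is not independent evidence.

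Of 15 genes that the study discusses, 5 had members alone (38.5% of the active, 17.7% to 64.5%, against 71% of all active genes). The study chose these genes on samples of this series, so their count is not independent evidence. Nono, a paraspeckle protein, and Tceal8, both on X, had RNAPOL2 scores of 715 and 897, and their nearest V5 peaks were 918740 and 428380 bp away. Trp53, which encodes p53, shared its peak with Wrap53 and had scores of 1367 for H3K27ac and 529 for RNAPOL2. Mitf, the melanocytic master regulator (chr6:97806441-97807870), had scores of 372 and 191 with V5 11130 bp away, and Tfap2a, a neural crest factor, had scores of 91 and 71. The remaining active genes of that list, 8 in number, were fusion-bound.

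Few markers of cell types had an active promoter, and 13 of the genes on these lists had members. The tumors were bulk tissue, and fewer cells of a type and less signal per cell cannot be told apart. Of 10 melanocytic markers, Mitf and Pmel had members, and the Pmel peak (RNAPOL2 score 1281) also covered the TSS of Cdk2. Tyr, Mlana, Dct, Tyrp1, Sox10 and Kit had no active promoter peak, and S100b and Ednrb had an H3K27ac peak with neither RNAPOL2 nor V5. Of all coding genes, 50.2% had an active promoter. Of 10 fibroblast markers 4 had members, Col1a1 (RNAPOL2 score 3415), Col1a2 (2658), Col3a1 (473) and Thy1 (270). Endothelial markers had 4 of 10, Kdr (529), Egfl7 (344), Esam (282) and Flt1 (265), and leukocyte markers 3 of 10, Cd68 (1228, in a peak shared with Mpdu1), Spi1 (255) and Cd14 (179). Of 12 skeletal muscle and 10 epithelial markers, 0 had an active promoter. The members of the fibroblast, endothelial and leukocyte lists had RNAPOL2 scores from 179 to 3415. Whether these peaks came from tumor or host cells was not tested, nor was the part of host cells in the member list as a whole.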

How the data were processed

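ChIP-seq of mouse EA1 tumors was deposited as 1 peak list per antibody (V5, RNAPOL2, H3K27ac), with input chromatin as background. According to labels and published methods, the authors aligned reads with BWA-MEM (0.7.10-r789) to mm10, removed duplicates, called peaks with MACS2 (2.2.6, broad for H3K27ac) against input and discarded denylisted regions. The score deposited with each peak is a whole number of unstated scale and was compared only within a list. How replicates were combined for the peak lists is not stated, and labels and methods give different sample numbers, so values per animal and reads per peak were not analysed here.

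Members were found by overlap of at least 1 bp with GENCODE vM21 coding TSSs extended by 3 kb. Sequence was read from mm10 (RefSeq copy) 500 bp either side of the coding TSS nearest the peak middle, and 10 elements (CRE and its core, AP-1, NF-Y, TATA box, GC box, ETS, NRF1, BANP and E-box) were sought on both strands. TGACG lies within TGACGTCA, so both counts share those promoters. Shares were compared by Fisher's exact test and medians by a permutation test of 100000 resamples, two-sided, with Benjamini-Hochberg adjustment over 15 tests and a threshold of 0.05. Opposite-strand TSSs were counted within 1 kb. RefSeq promoters were given for 5934 of 7474 member genes, and 1 within 50 bp of the chosen TSS is printed.

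Named members were the 10 with the highest RNAPOL2 and H3K27ac scores, the 10 with a CRE within 100 bp of the TSS and the highest RNAPOL2 score (5 fusion-bound), the 5 highest in the farthest 10% from V5, 3 at each edge of the rule, the 4 highest of each gene list, and every gene of the CREB, study and marker lists with a member; some of these are not reported here. Members and lists were chosen with earlier results of these data known. Code was tested on simulated data. Scripts used Python 3.11.15, scipy 1.17.1, statsmodels 0.14.6 and pysam 0.24.0. Alternatives changed the window, the overlap, the peaks used, the sequence length and the TSS, or compared within strata (Mantel-Haenszel test for shares).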

Additional observations from a re-analysis of the deposited data

How the results depend on the processing

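Results were recomputed with a promoter window of 1 or 5 kb, stricter overlaps and the upper 50% of peaks by score. Sequence results were also recomputed with 100 bp or 1 kb of sequence and another TSS, and all tested results in 10 strata of H3K27ac width or score. Counting each TSS once, without TSSs shared by both classes, was added after seeing the data and moved no result past a threshold. The CRE odds ratio ran from 0.0659 to 0.119, that of TGACG from 0.28 to 0.368, that of the X chromosome from 2.39 to 4.16 and the CpG difference from -0.106 to -0.0291, all past the threshold on the same side. The number of members ran from 6121 to 9796.

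Other results moved. With the upper 50% of V5 peaks the share without the fusion was 88.6%, the GC difference was 0.999 points, the odds ratios were 0.988 for CCAAT, 0.829 for TATAAA, 1.43 for GGGCGG and 1.47 for GCGCATGC, and the gene length difference was -572 bp. With the upper 50% of H3K27ac and RNAPOL2 peaks the share was 69.7% and GCGCATGC had 1.24. With 100 bp of sequence the GC difference was -0.498, and the ratios were 1.06 for CCAAT, 0.601 for TATAAA and 1.61 for GCGCATGC, and with 1 kb TCTCGCGA had 0.787. With the TSS nearest the RNAPOL2 peak CCAAT had 1.1. Strata of width gave 1.02 for CCAAT, 0.854 for GGGCGG, 0.691 for CCGGAAGT and -1919 bp for gene length. Strata of score gave 0.659 for GC, 0.841 for TGAGTCA, 0.948 for CCAAT, 0.875 for TATAAA, 1.63 for GGGCGG, 1.31 for GCGCATGC and 0.873 for opposite-strand TSSs. Of these, CCAAT, gene length and opposite-strand TSSs, and GC with 100 bp, did not pass the threshold, and the other tested values did. The cause of these changes was not tested. No paired analysis was possible because each antibody has 1 pooled list, and for the same reason no replicate could be left out. A weak V5 signal under the authors' peak threshold would leave a promoter among the members, as would a V5 site of the study that is not on the list used here, and how often was not tested.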

Other observations

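The share of active coding promoters without a V5 peak also varied among the autosomes, from 63.9% to 78.5%, around 72.4% in all. Of the 3 active coding promoters on Y, 2 were members.

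Apart from the classes compared above, 343 coding promoters had H3K27ac and V5 with no RNAPOL2 peak. Their median CpG ratio was 0.288, against 0.718 in the members, and the GC box GGGCGG was in 32.1% of them against 85.6%. TGACGTCA was in 4.66% of these, against 1.3% of members and 13.2% of fusion-bound promoters with RNAPOL2. The AP-1 element TGAGTCA was in 20.4%, against 9.54% of members. These differences were not tested.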
